A study of Mus musculus with 10 samples.

Results

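The genes described here are the non-ATPase subunits of the R2TP co-chaperone (Rpap3 and Pih1d1), the 3 subunits of the TTT complex that works with it (Telo2, Tti1 and Tti2), and 5 of the kinases these complexes mature (Mtor, Atm, Atr, Prkdc and Smg1). The 10 genes were taken by symbol, with earlier results of these data known, and all 10 of the 22713 gene IDs sought were found in both tables of normalized read counts. Tti2 is listed under its older name BC019943 and was matched by its position beside Mak16. mRNA was sequenced in 8 libraries of mouse embryonic stem (ES) cells. Pontinf/f; CreER ES cells, in which 4-hydroxytamoxifen (OHT) activates Cre and removes the floxed Pontin alleles, gave 1 library untreated (WT), 1 at 3 days (OHT 3D) and 1 at 4 days (OHT 4D) of OHT. ZHBTc4 ES cells, in which tetracycline (Tc) shuts off the only source of Oct4, gave 1 library at 2 days of Tc (Tc 2D). ZHBTc4 cells infected for 4 days with lentivirus gave 2 libraries with pLKO control and 2 with pLKO shlinc1253, which targets the long non-coding RNA linc1253. ChIP-seq of untreated ZHBTc4 cells gave 1 library with a Pontin antibody and 1 with GFP as control. All WT and OHT cells share the floxed Pontin alleles and CreER, and all ZHBTc4 cells share the Tc-regulated Oct4 transgene, the controls included.

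Pontin (Ruvbl1) and Reptin (Ruvbl2) are AAA+ ATPases that form the ring of R2TP. Rpap3 tethers HSP90 and HSP70 to the ring, and Pih1d1 recruits clients through phosphorylated acidic motifs, among them one that casein kinase 2 places on Telo2. TTT holds newly made kinases of the phosphatidylinositol 3-kinase-related family (PIKKs), so that R2TP and HSP90 can fold them and build them into complexes: mTOR in growth control, ATM, ATR and DNA-PK (Prkdc) in the response to DNA damage, and SMG1 in nonsense-mediated mRNA decay. This known action is on protein; the measurements below are of mRNA.

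Reads on genes came to between 17187595 and 37951742 per library, so that the members rest on 417 reads (Tti2, Tc 2D) or more. The depletions were seen in the targeted genes. Levels are normalized read counts (CPM, reads scaled to library size). Ruvbl1 stood at 198 in WT and, after OHT, at 33.3 on day 3 and 50.9 on day 4. Pou5f1, which encodes Oct4, stood at 301 in WT and 21.1 at Tc 2D. linc1253 was not analysed here. Markers of other cells moved with the conditions. Of 21 expressed fibroblast genes, which mark the feeder cells that ES cultures of this study could hold, 19 at OHT 3D and 20 a day later were above WT by more than the threshold used below. The 24 listed genes summed to 1095 CPM for WT, 1411 for OHT 3D, 1586 for OHT 4D and 919 for Tc 2D, and Lum and Fap were at or near 0 in all 4. Fn1 was the largest part of each sum and fell, with 794, 642, 556 and 515 CPM in that order, so the sums do not measure feeder cells. Of 12 trophectoderm genes 7, and of 11 primitive endoderm genes 9, were higher by that threshold at OHT 4D. Sparc and Pdgfra stand in both the fibroblast and the primitive endoderm list. At Tc 2D 13 of 15 pluripotency genes were lower, and 10 of 12 trophectoderm and 7 of 11 primitive endoderm genes higher. Of the 21 fibroblast genes 5 were higher there and 7 lower. Of all genes 6.01% were higher at OHT 3D and 6.48% at OHT 4D. At Tc 2D 23.9% were higher and 25.8% lower. The part of these other cells in the results was not tested. In these bulk samples fewer cells of a type and less RNA per cell cannot be told apart.

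To see how strongly ES cells express this machinery, levels were compared per kb of exons, since a long mRNA gathers more reads. In WT, Rpap3 was the highest at 31.2 CPM per kb, followed by Tti1 at 18.2, Pih1d1 at 15.9, Mtor at 11.1, Smg1 at 8.51, Atr at 7.37, Atm at 5.75, Tti2 at 5.51, Prkdc at 3.58 and Telo2 at 2.82 CPM per kb. The median expressed gene was at 5.86 CPM per kb, so 6 members lay above it and 4 below. With no second WT library, neighbours in this order cannot be told apart beyond counting error. Per kb of all annotated exons Rpap3 stayed the highest after OHT at both times and in all 4 shRNA libraries, and at Tc 2D Smg1 (18.4 CPM per kb) and Tti1 (17.3) were above Rpap3 (12.1). The places of Telo2 and Pih1d1 depend on the length used: the annotated exons of Telo2 cover 8007 bases and its longest coding transcript 3530 bases, and those of Pih1d1 cover 2024 and 1185 bases. Per kb of the transcript Telo2 had 6.40 CPM in WT, above Atm, Tti2 and Prkdc. On that scale Pih1d1 had 27.2 CPM per kb in WT, above Tti1 (19.7), and it was above Rpap3 at OHT 4D (29.5 against 29.0) and at Tc 2D (17.3 against 12.1). In the ZHBTc4 control libraries, a separate cell line sequenced on another instrument and in a table normalized separately, the mean log2 level of 8 members was above that of WT and that of 2 below it, with a median difference of 0.29 against 0.13 for all genes. Only Pih1d1, at -0.69, differed by more than 0.58 there, in 1 of 10 members against 27.7% of all genes.

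**Figure D1:**
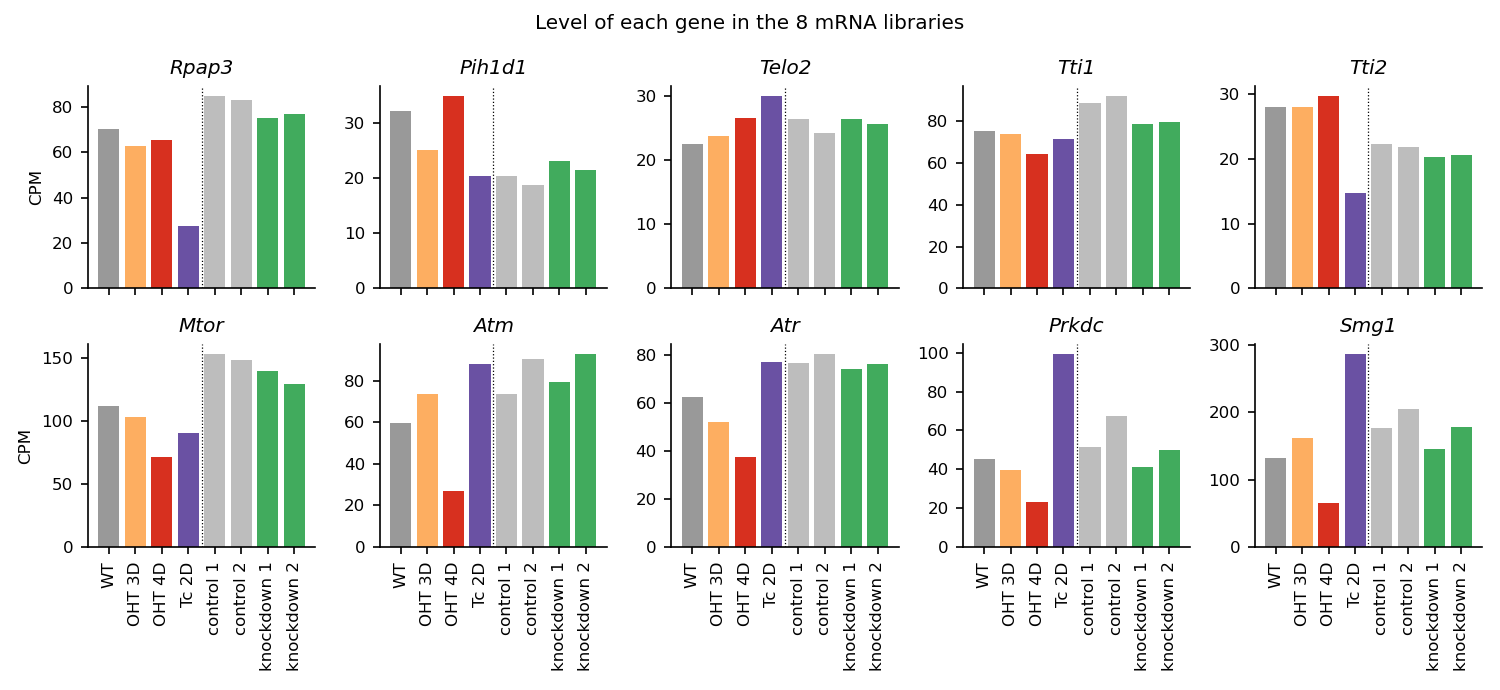
Level of the 10 genes in the 8 mRNA libraries in CPM (bars start at 0; 1 bar per library). The dotted line separates the tables that were normalized separately. The 5 kinases in the lower row had their lowest bar at OHT 4D, and Smg1 and Prkdc their highest at Tc 2D.

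The subunits of the co-chaperones stayed close to WT after OHT, as did Reptin. OHT, active Cre, time since treatment and loss of Pontin change together between WT and the OHT libraries. They cannot be told apart in these comparisons. The values that follow are in CPM in the order WT, OHT 3D, OHT 4D. Rpap3 (chromosome 15, 97505536 to 97536253, minus strand) had 70.4, 62.9 and 65.5 CPM. Pih1d1 (chromosome 7, 52409673 to 52415439, plus strand) had 32.2 and 25.1 CPM, and at OHT 4D it was within counting error of WT. Coordinates here and below are those of the NCBIM37 build. Telo2, which binds the kinases directly, had 22.6, 23.8 and 26.6 CPM. Tti1, its scaffold partner, had 75.3, 74.0 and 64.0 CPM. Tti2, the third TTT subunit, had 28.0, 27.9 and 29.7 CPM. Ruvbl2 had 327, 311 and 364 CPM while Ruvbl1 was depleted. Log2-fold-changes were taken after adding 1 to each CPM, and the threshold for a call was an absolute value of 0.58. None of these 5 subunits passed it at either time: the values lay between -0.35 (Pih1d1, 95% counting interval -0.50 to -0.20) and 0.07 (Telo2) at OHT 3D, and between -0.23 (Tti1, -0.33 to -0.13) and 0.23 (Telo2, 0.06 to 0.39) at OHT 4D. Intervals are for the counting of reads alone, since each condition had 1 library and no difference in this part of the design has a replicate check.

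The kinases did not pass the threshold at OHT 3D and all passed it, downwards, at OHT 4D. Atm, the kinase that responds to double-strand breaks (chromosome 9, 53247254 to 53344845, minus strand), had 59.5, 73.6 and 27.0 CPM in the same order. Smg1, which phosphorylates Upf1 in nonsense-mediated decay (chromosome 7, 125274832 to 125387151, minus strand), had 132, 162 and 65.9 CPM. Prkdc, the catalytic subunit of DNA-PK in end joining (chromosome 16, 15637959 to 15842332, plus strand), had 45.4, 39.5 and 23.0 CPM. Atr, the kinase of stalled replication forks (chromosome 9, 95758016 to 95852063, plus strand), had 62.7, 52.0 and 37.4 CPM. Mtor, the growth kinase (chromosome 4, 147822720 to 147931792, plus strand), had 112, 103 and 71.3 CPM. For all 5 kinases OHT 4D was the lowest of the 8 libraries. The log2-fold-changes at OHT 4D were -1.11 for Atm (95% counting interval -1.24 to -0.98), -0.99 for Smg1 (-1.08 to -0.91), -0.95 for Prkdc (-1.10 to -0.81), -0.73 for Atr (-0.85 to -0.61) and -0.64 for Mtor (-0.73 to -0.55), which is the nearest to the threshold and whose interval crosses it. At OHT 3D they were 0.30 for Atm, 0.29 for Smg1, -0.12 for Mtor, -0.20 for Prkdc and -0.27 for Atr.

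In counts, 0 of 10 members were called at OHT 3D, where 11.9% of 13449 expressed genes were. At OHT 4D 5 of 10 were called, all of them kinases and all lower, where 8.89% of all genes were called lower and 15.4% in either direction. The member median was -0.07 on day 3 and -0.44 on day 4, beside -0.02 and 0.00 over all expressed genes. Of the fibroblast genes, 19 were already above WT at OHT 3D, where no kinase was called; their part in the kinase values was not tested. From OHT 3D to OHT 4D, Atm changed by -1.41, Smg1 by -1.29 and Prkdc by -0.76, and Ruvbl1 by 0.60. Exon length, taken up next, also moved between these libraries: set against genes of like length, the changes were -1.03 for Atm, -0.91 for Smg1 and -0.38 for Prkdc.

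**Figure D2:**
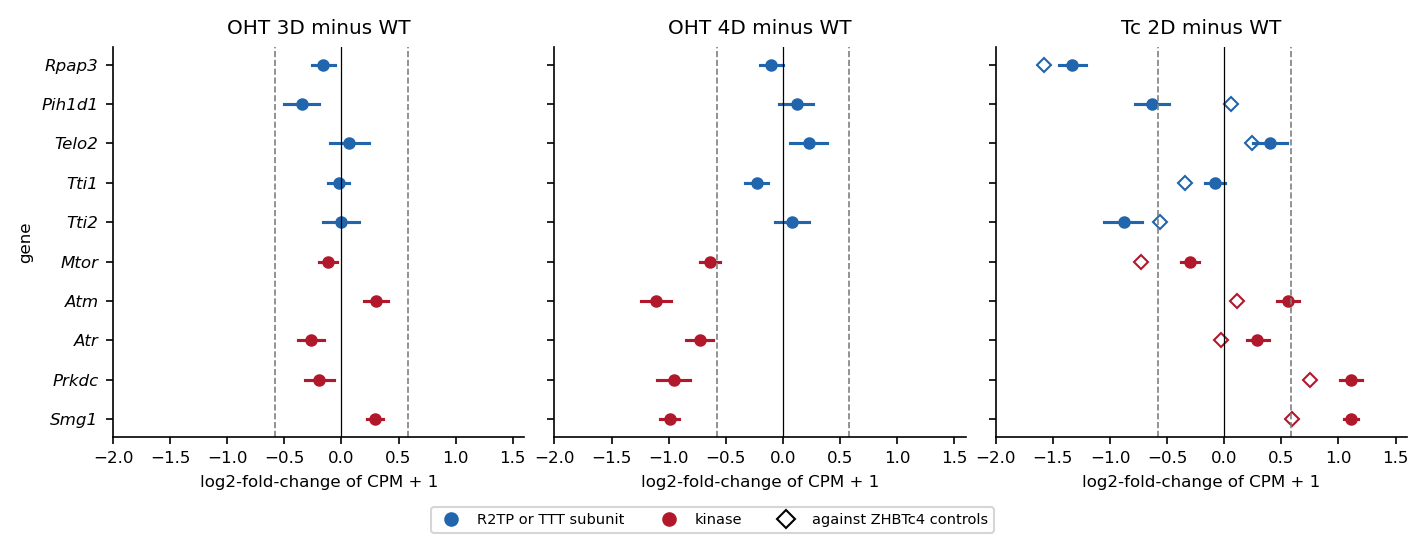
Log2-fold-change of CPM plus 1 against WT at OHT 3D, OHT 4D and Tc 2D (filled points, with 95% counting intervals), and at Tc 2D against the mean of the ZHBTc4 controls (open diamonds); dashed lines mark 0.58 in each direction. The 5 kinases lie left of the dashed line at OHT 4D and the 5 co-chaperone subunits between the lines.

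The kinases share a feature with many other genes that were lower at OHT 4D: they are long. Their exons cover from 8499 bases (Atr) to 15547 bases (Smg1), whereas those of Rpap3, Pih1d1, Tti1 and Tti2 cover between 2024 and 5076 bases. Of the 1183 expressed genes with at least 8499 exon bases, 30.0% were called lower at OHT 4D and 4.23% higher, with a median of -0.36. Across 13447 genes with a known length, the log2-fold-change had a Spearman correlation of -0.38 with exon length at OHT 4D and 0.15 at OHT 3D; these are correlations across genes of the same 2 libraries, not across replicates. Correlation with the GC content of the exons was 0.26 at OHT 4D. Therefore each gene was also set against the median of its own length bin, of 10 bins with equal numbers of genes, a correction added after the data had been seen. The values at OHT 4D were then -0.77 for Atm, -0.65 for Smg1 and -0.61 for Prkdc, which still passed 0.58, and -0.39 for Atr and -0.30 for Mtor, which did not. Within the longest bin, 3.05% of genes were lower than Atm, 5.43% lower than Smg1, 7.21% lower than Prkdc and 17.7% lower than Atr. With GC centred as well, Prkdc was at -0.55 and only Atm (-0.71) and Smg1 (-0.60) passed. Telo2, with nearly as many annotated exon bases as Atr, had 0.23 at OHT 4D and 0.44 after the length correction. That value rests on its annotated exons, whose bin had a median of -0.216; the bin that would hold its longest coding transcript had a median of 0.028. Whether RNA quality differed between the libraries was not tested.

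**Figure D3:**
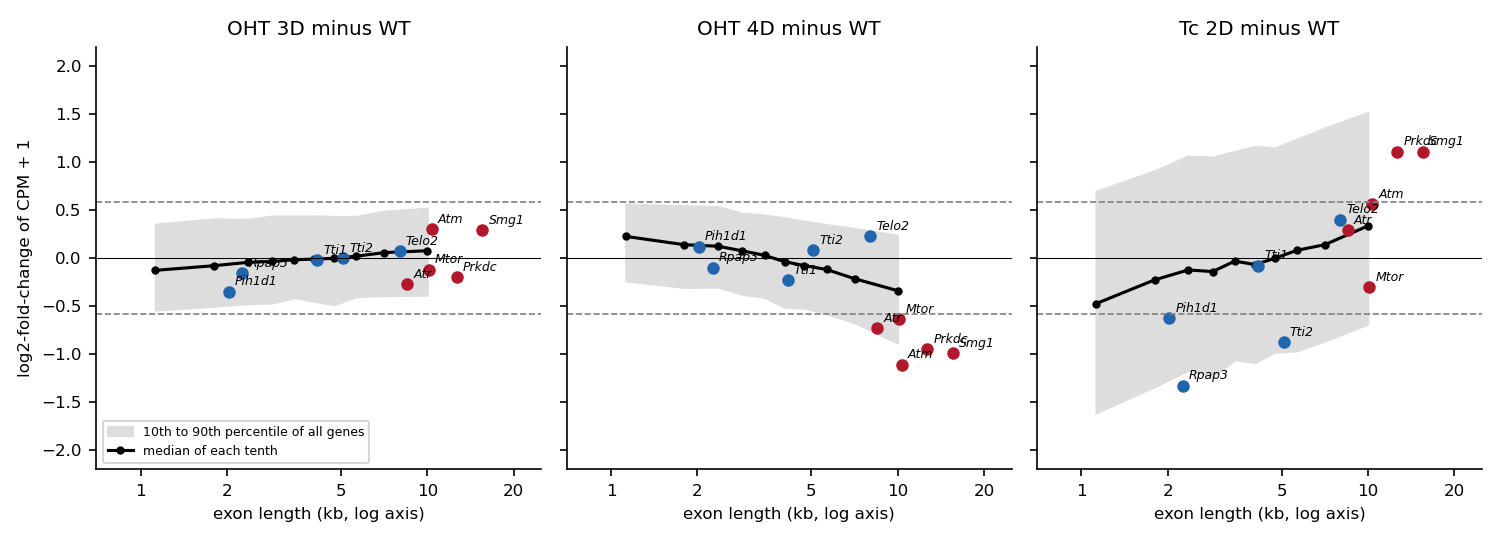
Log2-fold-change of CPM plus 1 against WT plotted against exon length in kb (log axis). Black points are medians of 10 equal bins of all expressed genes by length, placed at the median length of the bin, the grey band covers their 10th to 90th percentile, red points are kinases and blue points co-chaperone subunits. The medians slope down at OHT 4D, to -0.340 in the longest bin, and up at Tc 2D, to 0.335.

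Partners of the members were followed in lists, to be read beside the 8.89% of all genes lower at OHT 4D. At OHT 4D, 0 of 10 genes of the HSP90 system and 0 of 3 casein kinase 2 genes were called. Among 16 R2TP partners (the prefoldin-like module and adaptors), Pdrg1, a prefoldin-like subunit, was higher at 1.15, with 17.1, 43.7 and 39.2 CPM in WT, OHT 3D and OHT 4D, and Spag1 was lower at -0.59, a call lost when scaled by library size alone. Of 12 mTOR partners, Deptor, an inhibitory subunit, was lower at -1.04 and Rictor, which defines mTORC2, at -1.02. Of 15 ATM and ATR partners, the chromatin adaptors Mdc1 (-1.22) and Trp53bp1 (-0.86) were lower, and of 6 DNA-PK partners the nuclease gene Dclre1c (-0.85). None of 9 nonsense-mediated decay factors was called. Of 6 transcripts known as decay targets, 1 was higher, Gadd45b, with a log2-fold-change of 1.62, and the median was 0.07. That list held 10 genes, but Gas5, Snhg1, Snhg12 and Snhg15, which are non-coding, have no normalized counts here. Trrap, the family member without kinase activity, was at 0.35 at OHT 3D and -0.45 at OHT 4D. Taken by length, 4 of 7 partners with at least 8499 exon bases were lower at OHT 4D (median -0.85), where 30.0% of all genes of that length were, against 2 of 65 shorter ones (median 0.00). At OHT 3D, where 11.9% of all genes were called, Pdrg1 (1.31) was the single gene called among these 72 partners. Upp1 (-0.80) and Gadd45b (0.88) of the decay targets were also called.

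After Oct4 depletion Rpap3 was lower and Prkdc and Smg1 were higher, both against WT and against the mean of the ZHBTc4 controls. On the deposited scale Pih1d1 and Tti2 passed the threshold against WT alone, and Mtor against the controls alone. At Tc 2D Rpap3 had 27.3 CPM, the lowest of the 8 libraries, against 70.4 in WT and 84.9 and 83.0 in the ZHBTc4 controls. Its log2-fold-change was -1.33 against WT (95% counting interval -1.45 to -1.21) and -1.58 against the mean of the controls. Tti2 had 14.7 CPM, against 28.0 in WT and 22.3 and 21.8 in the controls (-0.88 and -0.56), also the lowest of the 8 libraries on the deposited scale. By library size alone it was at -0.59 against WT and at 0.05 against the controls, so it was not lower than the controls there. Pih1d1 had 20.5 CPM, below WT (32.2, a difference of -0.63) but level with the controls of its own line (20.5 and 18.8, a difference of 0.06). By library size alone its call against WT was lost (-0.32), and it was called higher against the controls (0.68). Telo2 had 30.1 CPM and Tti1 71.3 CPM, and neither passed the threshold against either control on the deposited scale. Scaled by library size alone, Telo2 passed it upwards, at 0.72 against WT and 0.86 against the ZHBTc4 controls. Of the kinases, Prkdc had 99.3 CPM, against 45.4 in WT and 51.3 and 67.3 in the controls. Smg1 had 286 CPM, against 132 in WT and 177 and 204 in the controls. Both were the highest of the 8 libraries, with 1.11 each against WT and 0.75 (Prkdc) and 0.59 (Smg1) against the mean of the controls. Against control replicate 2 alone they were 0.55 and 0.48 and did not pass. Atm (87.8 CPM, 0.56 against WT) and Atr (77.1 CPM, 0.29) lay within the range of the ZHBTc4 controls on the deposited scale. By library size alone both passed upwards, Atm at 0.88 against WT and 0.74 against the controls, and Atr at 0.61 against each. Atm also passed against WT on the median-ratio scale (0.60). Mtor had 90.4 CPM, -0.30 against WT and -0.73 against the controls. The latter did not pass on one median-ratio scale (-0.55) or when scaled by library size alone (-0.09).

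Of the 10 members, 2 were called higher at Tc 2D and 3 lower against WT, where 23.9% of all genes were higher and 25.8% lower, so the share called, 5 of 10, is near the 49.8% of all genes. Against the ZHBTc4 controls 2 were higher and 2 lower, beside 17.1% and 29.8% of all genes. The first comparison joins the treatment to a change of cell line, and these cannot be told apart in it. The second stays in a line but crosses tables normalized separately and joins Tc to the absence of lentivirus and to another sequencing instrument. The deposited scale also matters here, because the CPM of the Tc 2D library summed to 638591. Those of WT summed to 798811 and those of the ZHBTc4 controls to 980063 and 1015095. When scaled by library size alone, the median of all genes against WT moved from -0.06 to 0.24, with 35.4% higher and 16.4% lower, and 5 members were higher and 2 (Rpap3 and Tti2) lower. On that scale against the ZHBTc4 controls the median of all genes moved from -0.17 to 0.43, with 42.2% higher and 12.5% lower, and 6 members were higher and 1 (Rpap3) lower. Rpap3 passed the threshold downwards, and Prkdc and Smg1 upwards, on the deposited, median-ratio and library-size scales with WT or the mean of the ZHBTc4 controls as control. Long genes were higher at Tc 2D (39.4% of the 1183 long genes called), and with length centred the values against WT were 0.78 for Prkdc, 0.77 for Smg1, -0.64 for Mtor, -1.21 for Rpap3, -0.88 for Tti2 and -0.40 for Pih1d1. Against the ZHBTc4 controls the same step left Rpap3 at -1.35, Mtor at -0.87 and Prkdc at 0.61, and Smg1, at 0.45, no longer passed.

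The partner lists at Tc 2D are to be read beside all genes, of which 25.8% were lower and 23.9% higher against WT and 29.8% and 17.1% against the ZHBTc4 controls. By library size alone these shares were 16.4% lower and 35.4% higher against WT, and 12.5% and 42.2% against the controls. Of 10 HSP90-system genes 7 were called lower against WT, with a median of -0.74, and 9 against the ZHBTc4 controls, with a median of -1.52; scaled by library size alone, 4 and 6 were. The co-chaperone genes Fkbp4, Ptges3 and Stip1 were at -1.60, -1.24 and -1.14 against WT. Against the controls Hsp90ab1, the constitutive HSP90, was at -2.28, Hspa8, the constitutive HSP70, at -2.19 and Hsp90aa1, the inducible HSP90, at -1.77. Against WT these genes were at -0.82, -1.03 and -0.56, the last not called. The controls stood above WT for each of them. Hsp90ab1 had 8119 and 9198 CPM in the controls and 3140 in WT. Hspa8 had 3004 and 3951 against 1542, and Hsp90aa1 4383 and 5256 against 2074. Of 16 R2TP partners 8 were lower against WT, led by Uxt (-1.31), Uri1 (-1.09) and Pfdn6 (-0.99) of the prefoldin-like module, and 11 were lower, led by Pfdn2 (-1.50), Polr2e (-1.20) and Pfdn6 (-1.07), and 1 higher (Wac, 0.64) against the controls; by library size alone 3 and 1 were lower, so the call for most of them depends on the scale. Ruvbl2 had 169 CPM at Tc 2D, against 327 in WT and 411 and 392 in the controls, and Ruvbl1 85.0 CPM against 198, 166 and 186. Ruvbl1 was thus at -1.21 against WT and -1.04 against the controls. By immunoblot and quantitative RT-PCR, the paper found no significant change of Pontin after Oct4 depletion. Values by library size alone are not given here for these genes. Casein kinase 2 had 2 of 3 genes lower against WT and 1 against the controls, and by library size alone 0. Of 12 mTOR partners 1 was higher (Tsc1, 0.83) and 1 lower (Deptor, -1.56), and of 15 ATM and ATR partners 1 was higher (Trp53bp1, 0.64) and 2 lower (Chek2, -1.11, and Etaa1, -0.71), both against WT. Against the controls 2 mTOR partners were higher (Tsc1, 0.70, and Akt1s1, 0.64) and 1 lower (Deptor, -1.16), and 0 ATM and ATR partners were higher and 3 lower (Hus1 at -0.91, Etaa1 at -0.89 and Chek2 at -0.64). By library size alone the counts moved upwards, as those of all genes did, with 6 mTOR partners higher and 1 lower against WT and 7 and 0 against the controls, and with 4 ATM and ATR partners higher and 1 lower against WT and 8 and 0 against the controls. Of 6 DNA-PK partners 2 were lower against WT, Xrcc5, which encodes a Ku subunit that DNA-PK works with, at -1.06 and the ligase cofactor Xrcc4 at -0.88. Against the controls 3 were lower, Xrcc5 (-0.98), Xrcc6 (-0.84), which encodes the other Ku subunit, and Nhej1 (-0.69), with Xrcc4 at -0.26. By library size alone 0 were lower there and 1 higher, so the call for Xrcc5 against the controls was lost. Of 9 decay factors 3 were lower against WT: Upf1, its substrate, at -1.31, Smg9 at -0.97 and Upf3b between them. Against the controls Upf1 alone was (-0.98), with Smg9 at 0.01 and Upf3b at -0.43, and by library size alone 4 of the 9 were higher there and none lower, near the 42.2% of all genes that were higher. Against WT on that scale 3 were lower and 1 higher. Of the 6 decay targets 3 were higher and 2 lower against WT, with values from -3.70 (Upp1) and -2.54 (Gadd45a) to 1.89 (Ddit3). Against the controls 2 were higher and 2 lower, with Upp1 at -3.91, Gadd45a at -0.96 and Ddit3 at 2.61. By library size alone 3 were higher and 1 lower there.

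Knockdown of linc1253 is the only comparison with replicates, 2 libraries against 2 in ZHBTc4 cells; nothing says that they came from separate cultures, so p-values measure the spread between these libraries. The limma fit on log2 CPM plus 1 did not pair libraries by replicate number. The last section gives a fit that pairs them, which called members. At an adjusted p below 0.05 the unpaired limma fit called no member and no gene of 13407 (0% called). Its smallest adjusted p was 0.265, with 496 genes higher and 503 lower at an unadjusted p below 0.05. The quasi-likelihood test of edgeR on the recovered reads called 0 genes too, and DESeq2 called 50, none of them a member. Prkdc had 51.3 and 67.3 CPM in the controls and 41.1 and 49.7 in the knockdown libraries, which lay below both controls. Its level was 59.3 ± 11.4 CPM in the controls and 45.4 ± 6.11 after knockdown (SD, n = 2 each), a log2-fold-change of -0.37 ± 0.16 (SE; limma, unadjusted p = 0.0590, adjusted p = 0.676). Tti1 had 88.6 and 92.1 CPM in the controls and 78.5 and 79.5 in the knockdown libraries, with less spread (-0.19 ± 0.09, limma adjusted p = 0.692). Smg1 had 177 and 204 CPM against 146 and 178, which overlap (-0.24 ± 0.13, limma adjusted p = 0.721). Mtor had 153 and 148 CPM against 140 and 129 (-0.17 ± 0.09, limma adjusted p = 0.720). Leaving out 1 library in turn moved Prkdc to between -0.56 (without control replicate 1) and -0.18 (without control replicate 2), and Smg1 to between -0.38 (without knockdown replicate 2) and -0.09 (without knockdown replicate 1). The values of the other 6 members lay between -0.14 (Rpap3) and 0.18 (Pih1d1). Both knockdown libraries were below both controls for 6 members (Rpap3, Tti1, Tti2, Mtor, Atr and Prkdc), beside 19.2% of all genes, and above both for 1 (Pih1d1), beside 18.8%. For 3 of the 5 kinases the replicates differed by 0.20 or more within each group. Control replicate 2 was above replicate 1 by 0.39 for Prkdc, 0.30 for Atm and 0.20 for Smg1, and knockdown replicate 2 above replicate 1 by 0.27, 0.22 and 0.29. For Atr these differences were 0.06 and 0.04, and for Mtor -0.05 and -0.11. Across all genes that difference had a Spearman correlation of -0.43 with exon GC in the controls and -0.39 in the knockdown libraries. Listed fibroblast genes also differed between the replicates, in both directions. Acta2 had 0.277 and 3.31 CPM in the controls and 0.180 and 17.7 in the knockdown libraries. Vim had 217 and 163 CPM, then 205 and 173. The part of feeder cells in these differences was not tested.

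**Figure D4:**
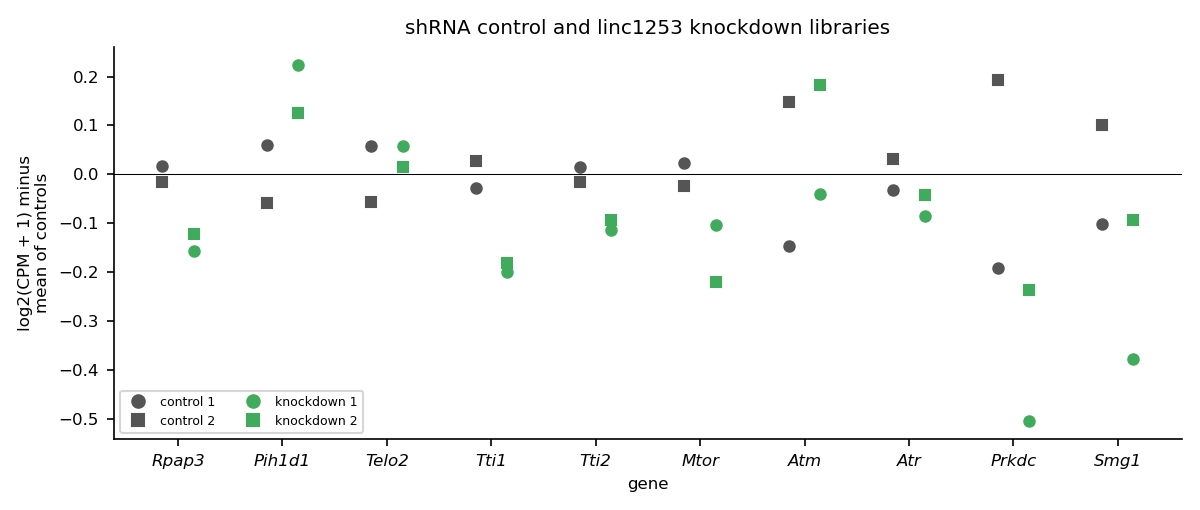
Log2 of CPM plus 1 in each shRNA library minus the mean of the 2 controls, for the 10 genes (grey, controls; green, knockdown; circles, replicate 1; squares, replicate 2). Prkdc, Atm and Smg1 show replicate 2 above replicate 1 in both groups, and both Tti1 knockdown points lie below its controls.

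To ask whether Pontin sits at these genes, ChIP-seq reads within a promoter window (from -2.5 kb to 500 b around each start site) were divided by library size (40729076 reads for Pontin, 17185883 for GFP). All 10 members had a positive log2 ratio of Pontin to GFP, as did 70.1% of all promoters and 78.2% of those of expressed genes; scaled by the median ratio over promoters, 8 members did, with 49.8% of all and 57.5% of expressed promoters. The 5 kinases (0.70 to 1.32) lay above the 5 co-chaperone subunits (0.23 to 0.62) in this window, with 1 library per antibody and no replicate check. Mtor had 77 Pontin and 13 GFP reads, a log2 ratio of 1.32 (95% counting interval 0.17 to 2.47), higher than 93.4% of 21178 protein-coding promoters. Atm had 98 and 18 reads, a ratio of 1.20 (0.22 to 2.18). These were the only members whose interval left out 0, and the intervals of the 10 members overlap one another. Both intervals took in 0.34, the median over all promoters, and 0.45, the median over those of expressed genes. The share of all promoters whose interval leaves out 0 was not computed. Atr was at 0.81, Prkdc at 0.78, Smg1 at 0.70, Tti2 at 0.62, Rpap3 at 0.60, Tti1 at 0.52, Telo2 at 0.25 and Pih1d1 at 0.23, the last higher than 43.5% of promoters. The median over the members was 0.66, beside 0.34 over all promoters and 0.45 over 12775 promoters of genes expressed in ZHBTc4 cells. The order did not hold with 1 read per position and strand, where Rpap3 (0.93) was above Atr (0.65), Prkdc (0.59) and Smg1 (0.55). Of the GFP reads 19.3% and of the Pontin reads 11.4% shared a position. It did not hold either in a narrower window reaching 1 kb in both directions, where Rpap3 was the highest (1.36), Telo2 the lowest (0.27) and Smg1 at 0.42, with a member median of 0.99 beside 0.68 for expressed genes. By bins of 250 bases, the summed ratio over the members was between 1.01 and 1.38 from about 625 bases upstream to 375 downstream. That of expressed genes was between 0.429 and 0.866 in the same bins. Elsewhere the members' ratio was between -2.07 and 1.28, and their bins held 12 to 55 GFP reads each.

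**Figure D5:**
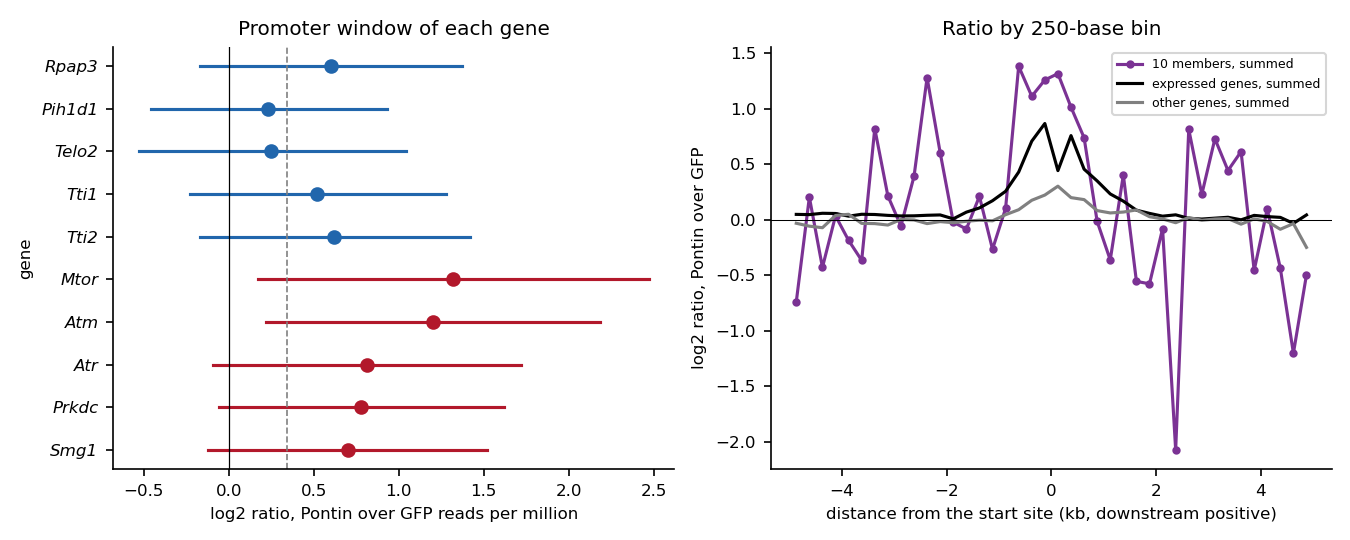
Left, log2 ratio of Pontin over GFP, scaled by library size, in the promoter window of each gene with its 95% counting interval (dashed line, median of all promoters, 0.34). Right, the ratio by 250-base bin around the start site for the 10 genes summed, expressed genes and other genes; the members' line is highest near the start site and varies widely farther out.

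The promoters with the highest and the lowest ratio are shown, as the 250 bases before the RefSeq start site, read on the plus strand of NCBIM37 in the direction of the gene (RefSeq sequences matched to the build without a mismatch). Mtor is chr4:147822441-147822690 and Pih1d1 chr7:52409423-52409672, neither overlapping an annotated exon. Capitals mark matches, on either strand, to the GC box GGGCGG, the NRF1 core TGCGCA, the ETS core CCGGAAG, the NF-Y box CCAAT, the E-box CACGTG and the octamer ATGCAAAT.
Mtor: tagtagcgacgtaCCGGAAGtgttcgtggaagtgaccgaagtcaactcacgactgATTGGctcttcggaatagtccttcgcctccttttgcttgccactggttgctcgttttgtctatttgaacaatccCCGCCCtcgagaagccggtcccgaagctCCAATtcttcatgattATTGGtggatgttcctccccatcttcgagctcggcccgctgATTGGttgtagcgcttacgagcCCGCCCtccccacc
Pih1d1: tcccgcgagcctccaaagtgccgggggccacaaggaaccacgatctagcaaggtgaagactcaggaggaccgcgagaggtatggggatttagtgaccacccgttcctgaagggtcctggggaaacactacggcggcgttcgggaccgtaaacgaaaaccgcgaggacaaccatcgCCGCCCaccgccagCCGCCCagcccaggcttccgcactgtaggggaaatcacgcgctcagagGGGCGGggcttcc
Mtor holds 4 NF-Y boxes, 2 GC boxes and 1 ETS match, and Pih1d1 3 GC boxes. RefSeq windows of 300 bases, which run 50 bases past the start, were given for 8 members (not Tti2 and Prkdc). Of these 8, 5 held a GC box (46.2% of 21263 protein-coding promoters did), 4 an NF-Y box (38.2%), 3 an ETS match, all in kinases (Mtor, Atm and Atr; 11.6%), 3 an NRF1 match (Rpap3, Telo2 and Atm; 9.74%), and none an E-box (7.84%) or an octamer (1.66%), the latter being the element that Oct4 can bind. All were rich in CpG, with 16 to 32 CpGs per window against a median of 13. Atm, Prkdc and Tti1 each have a divergent neighbour within 1 kb, 3 of 10 members beside 10.9% of expressed genes. At OHT 4D, Npat, 307 bases from Atm, was at -0.65, Mcm4, 466 bases from Prkdc, at -0.09, and Rprd1b, 64 bases from Tti1, at 0.31. Some exon bases of Pih1d1 (149, with Aldh16a1), Tti2 (325, with Mak16) and Atr (187, with a pseudogene, and 151, with a lincRNA) lie opposite exons of another gene; the strand setting of the counting is not given in the sources used here, so reads of the partners in these stretches cannot be told apart.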

How the data were processed

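The authors trimmed the reads with cutadapt, aligned them to NCBIM37 with TopHat (mRNA) or Bowtie2 (ChIP-seq), counted mRNA reads on genes with HTSeq and deposited them as CPM after TMM normalization in edgeR, in 2 tables normalized separately. All values (100%) were whole multiples of 1 read within 0.01 read. The authors deposited ChIP-seq alignments as positions with a mapping quality score (lowest 5 for GFP and 6 for Pontin); duplicates were kept.

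For OHT and Tc, genes that exceeded 1 CPM in any library of the table were kept. The linc1253 libraries were fitted over 13407 genes with limma 3.58.1 (trend, Benjamini-Hochberg). On the recovered reads edgeR 4.0.16 and DESeq2 1.42.0 were run in R 4.3.3. The knockdown tests, fold-change calls, centring by exon length and ChIP-seq ratios were each tried on simulated data. The levels, promoter matches and motif counts were not. Intervals are for counting error alone, because without molecular identifiers PCR copies are counted as separate reads. ChIP-seq intervals count read pairs once. Symbols were matched for 22337 of 22713 IDs, and lengths and GC are of NCBIM37 exons. All 10 members are named in each comparison, with up to 3 genes per partner list, those with the largest called change. Gadd45b, Upp1, Ddit3, Etaa1, Tsc1 and others of a list are named by that rule. Genes named against WT or against the controls may be given against the other too. Wac, Fn1, Acta2 and Vim were named after their values were seen, and divergent neighbours are named by position. The NRF1 letters were shortened to the core after a longer form had been counted. Members and lists were chosen with earlier results of these data known. Python 3.11.15 with pandas 2.3.3, numpy 2.4.6, scipy 1.17.1 and pysam 0.24.0 was used.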

Additional observations from a re-analysis of the deposited data

Results flagged for a closer look

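Atm and Smg1 stood on opposite sides of WT at the 2 times after OHT, with counting intervals that left out 0 at both. Atm was at 0.30 (95% counting interval 0.20 to 0.41) at OHT 3D and at -1.11 (-1.24 to -0.98) at OHT 4D, a difference of -1.41 between the times. Smg1 was at 0.29 (0.22 to 0.36) and at -0.99 (-1.08 to -0.91), a difference of -1.29. Long genes as a set moved the same way. Those with at least 8499 exon bases had a median of 0.08 against WT on day 3, and on day 4 it was -0.36. Between the times 34.2% of them were lower by more than 0.58 and 0.592% higher. Across genes the change between the times had a Spearman correlation of -0.51 with exon length and 0.36 with exon GC. Against genes of like exon length the differences for Atm and Smg1 were -1.03 and -0.91. In the longest bin 1.12% of genes were lower than Atm and 2.23% lower than Smg1. How many of all genes crossed WT by the same rule was not counted. Each time had 1 library, and the differences were not tested.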

How the results depend on the processing

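With 1 library per condition, no called change at OHT or Tc has a replicate check. Of 300 values of members under alternatives, 270 kept their call. Settings that changed only the filter left the members' values as they were, so those calls could not change. At OHT 3D no member passed the threshold under any setting. Members past the threshold at OHT 4D, all lower, fell from 5 to 1 (Atm) at an absolute log2-fold-change above 1. They fell to 3 (Atm, Prkdc and Smg1) with centring by exon length and to 2 (Atm and Smg1) with length and GC. Of all genes, 8.89% were lower in the main setting, 1.61% at a threshold of 1, 6.20% with length centred and 6.10% with both centred. At Tc 2D they fell from 5 to 3 at a threshold of 1, where 12.8% of all genes were higher and 12.6% lower. Against the ZHBTc4 controls on one median-ratio scale they fell to 3, where 23.4% of all genes were higher and 23.1% lower. Against those controls Pih1d1 was at 0.06, on the median-ratio scale at 0.24 and scaled by library size at 0.68, where Tti2 was at 0.05. After linc1253 knockdown DESeq2 called 50 genes. Leaving out 1 library in turn gave 0 to 19 genes and 0 to 0 members; it moved Atm from 0.07 to between -0.08 and 0.22 and Telo2 from 0.04 to between -0.02 and 0.09. The calls appeared without control replicate 2 (4 genes) and without knockdown replicate 1 (19 genes). The replicate numbers are not stated to pair libraries, although deviations of same-numbered libraries correlated at 0.673. With the replicate block, limma called 1960 genes (7.66% of genes lower) and 4 members, all lower (Prkdc, adjusted p = 5.29e-04; Smg1, 0.00579; Tti1, 0.0261; Mtor, 0.0428). The median Pontin over GFP ratio of the members was 0.99 in the 1 kb window and 0.32 after scaling by the median ratio over promoters, where the median of all was 0.00 and Pih1d1 and Telo2 fell below 0 (lowest -0.11). Other pseudocounts and filters, and other scalings at OHT, left the counts of members past the threshold unchanged. At Tc 2D against WT they were 6 on the median-ratio scale and 7 by library size alone. Of all genes 25.9% were higher and 24.7% lower on the first of these scales, and 35.4% and 16.4% on the second. The depth of the GFP library, with 13 to 37 reads per member, limits the ChIP-seq ratios. The cause of these shifts was not tested.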
